A study of Mus musculus with 10 samples.

Results

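Lymphoid priming genes are genes of the earliest lymphoid and multipotent progenitors, and 9 of them were followed here: Flt3, Cd48, Il7r, Dntt, Rag1, Satb1, Notch1, Ccr9 and Tcf3. They were taken by gene symbol, and all 9 were among the 24544 genes of the count table. The libraries came from long-term hematopoietic stem cells of the bone marrow of Hoxb5-mCherry mice, 2 to 3 months old, in which a fluorescent protein reports Hoxb5. All cells carried the reporter and passed one gate: positive for cKIT, SCA1, CD150 and the Hoxb5 reporter, and negative for lineage markers, CD48, FLK2 and CD34. They were then parted by surface NEO1, the receptor neogenin-1, into 5 NEO1+ and 5 NEO1- libraries, each of 250 to 500 cells pooled from 2 mice. The comparison asks whether either fraction of the stem cells carries more transcript of the early lymphoid program. The gate itself excludes cells with surface CD48 or FLK2, the products of Cd48 and Flt3, so both fractions were sorted as negative for these proteins; the purity of the sort was not measured here.

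When a stem cell gives rise to multipotent progenitors, it loses self-renewal and gains the cytokine receptor FLT3 and the surface protein CD48. A share of these progenitors starts to transcribe lymphoid genes at a low level before it commits to a lineage, which is called lymphoid priming. The E protein TCF3 (E2A) and the chromatin organizer SATB1 favour that step, NOTCH1 signals direct cells to the T lineage, IL7R carries the main survival signal of early lymphocytes, CCR9 draws progenitors to the thymus, and RAG1 and terminal transferase (encoded by Dntt) cut and diversify antigen receptor genes.

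The 9 genes fell into 2 genes found in all libraries, 2 found in 9, 3 found in 5 or fewer and 2 found in none. Tcf3 and Notch1 had counts in all 10 libraries, Flt3 and Satb1 in 9, Cd48 in 5, Ccr9 in 3 and Il7r in 1, while Rag1 and Dntt had 0 counts in all 10. The bases just upstream of the RefSeq start sites are shown for the pair at each end. These genes were detected in every library or in none, and their CG content differs. Each run is the 250 bases before the RefSeq start site on GRCm38, the assembly behind mm10, written 5′ to 3′ on the strand of the gene with every CG dinucleotide in capitals. Their positions are chr10:80433636-80433885 (minus strand) for Tcf3, chr2:26503823-26504072 (minus) for Notch1, chr2:101649533-101649782 (minus) for Rag1 and chr19:41029025-41029274 (plus) for Dntt.
Tcf3: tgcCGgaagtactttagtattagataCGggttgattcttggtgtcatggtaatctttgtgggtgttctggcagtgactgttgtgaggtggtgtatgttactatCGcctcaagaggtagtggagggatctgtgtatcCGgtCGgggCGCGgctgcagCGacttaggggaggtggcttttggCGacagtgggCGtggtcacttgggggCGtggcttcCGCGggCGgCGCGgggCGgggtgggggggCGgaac
Notch1: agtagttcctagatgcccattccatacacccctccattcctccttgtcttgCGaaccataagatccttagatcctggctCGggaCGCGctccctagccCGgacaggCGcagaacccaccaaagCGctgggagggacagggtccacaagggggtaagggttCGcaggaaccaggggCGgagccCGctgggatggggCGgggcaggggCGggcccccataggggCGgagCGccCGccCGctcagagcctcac
Rag1: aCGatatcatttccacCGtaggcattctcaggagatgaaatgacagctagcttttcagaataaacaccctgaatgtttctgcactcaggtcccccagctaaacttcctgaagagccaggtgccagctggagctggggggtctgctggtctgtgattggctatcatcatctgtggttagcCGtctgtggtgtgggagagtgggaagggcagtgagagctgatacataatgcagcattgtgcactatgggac
Dntt: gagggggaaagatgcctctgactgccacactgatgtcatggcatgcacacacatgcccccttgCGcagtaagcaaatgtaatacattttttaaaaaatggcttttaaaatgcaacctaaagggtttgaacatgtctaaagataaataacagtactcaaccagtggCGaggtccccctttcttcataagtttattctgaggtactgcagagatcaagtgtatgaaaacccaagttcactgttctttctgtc

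The Tcf3 window held 18 CG dinucleotides and the Notch1 window 16, against 3 for Rag1 and 2 for Dntt. The Notch1 window lies inside the GENCODE span of the gene given below, and the Tcf3 window partly so. Among the other members Flt3 held 13, Satb1 5, Cd48 4, Ccr9 3 and Il7r 1 (for Satb1, which has 5 RefSeq windows, the outermost was read). The 3 members with more than 5 CG dinucleotides were thus found in 9 or 10 libraries, but Satb1 was found in 9 with only 5. Over the 16496 protein-coding genes of the table that matched a window (80.03% of 20612), the median was 10, and over the 7884 of them with counts in all 10 libraries (81.9% of that class) it was 17. In the latter class 10.4% of the genes had 5 CG dinucleotides or fewer, against 35.5% of all matched genes. Genes with 0 counts in every library matched a window in 79.4% of cases, a slightly smaller share. Over these 5096 matched genes the median was 2, and 74.2% had 5 CG dinucleotides or fewer. The low values of Rag1 and Dntt were thus common in their class, as far as its genes matched a window. The hexamers CAGCTG and CACCTG, forms of the E-box that E proteins bind, were searched on both strands. Rag1 held 1 of each and Ccr9 held 1 CACCTG; the windows of the other 7 members held neither. Of all matched windows 11.9% held CAGCTG and 16.4% held CACCTG.

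**Figure D1:**
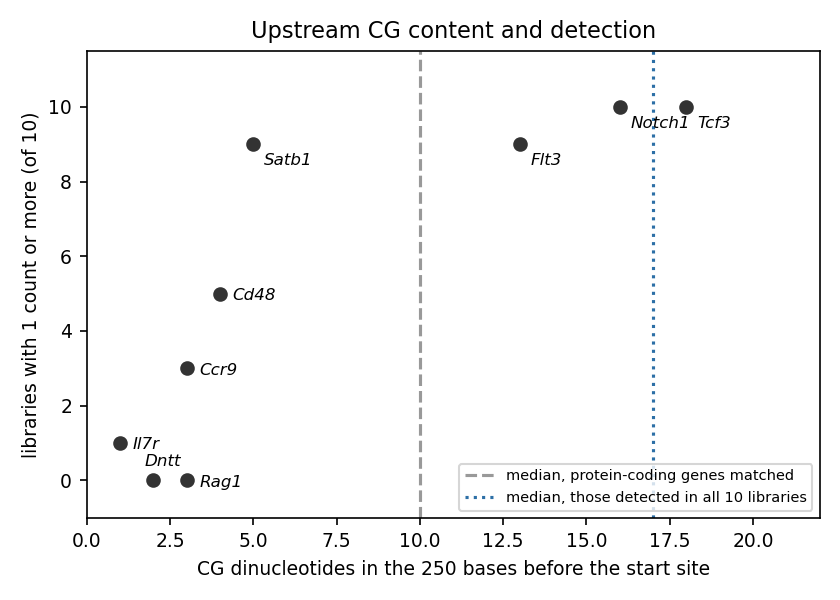
CG dinucleotides in the 250 bases before the start site (x axis) against the number of the 10 libraries with 1 count or more (y axis), 1 point per gene; the dashed line is the median of matched protein-coding genes (10) and the dotted line that of those with counts in all 10 libraries (17). Tcf3 and Notch1 stand at the upper right, and Il7r, Dntt and Rag1 at the lower left.

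Libraries held 21.2 to 38.95 M counts, of which the ribosomal RNA precursor Rn45s took 27.9% to 42.4%, and levels are given as CPM, counts per 1 M of the library size scaled by TMM in edgeR. Where a pair of levels is given for a gene, NEO1+ comes first and NEO1- second, each as mean ± SD of n = 5 libraries. A count of 0 allows up to 3 counts, between 0.0698 and 0.144 CPM depending on the library; the reads carry no molecular identifiers, so floors and intervals cover counting error only. NEO1+ libraries held 13146 ± 391 genes with 1 count or more and NEO1- libraries 12142 ± 680 (SD, n = 5 each), with the fewest in NEO1- libraries 1 and 3 (11477 and 11593). Neo1 was at 48.6 to 64.7 CPM in 4 of the NEO1+ libraries but at 12.5 CPM in the library labelled NEO1+ 4, inside the NEO1- range of 4.55 to 18.9 CPM, and without that library the log2 fold changes of the members tested were -1.88 for Flt3, -0.41 for Cd48, -0.01 for Satb1, 0.07 for Notch1 and 0.05 for Tcf3, with 0 past the threshold. Stem cell markers were present throughout: the summed level of 12 markers ranged from 2365 to 2714 CPM (NEO1+) and from 2352 to 2774 CPM (NEO1-). The quasi-likelihood test of edgeR with Benjamini-Hochberg adjustment was fitted to the 12203 genes that passed its filter on low counts. Of the 9 members 5 passed the filter (Tcf3, Notch1, Satb1, Flt3 and Cd48). Of these, 0 had an adjusted p under 0.05 and 0 an unadjusted p under 0.05; of all genes tested 0% and 6.60% did. DESeq2, run as an alternative, called 146 genes, and 0 of the members were among them.

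**Figure D2:**
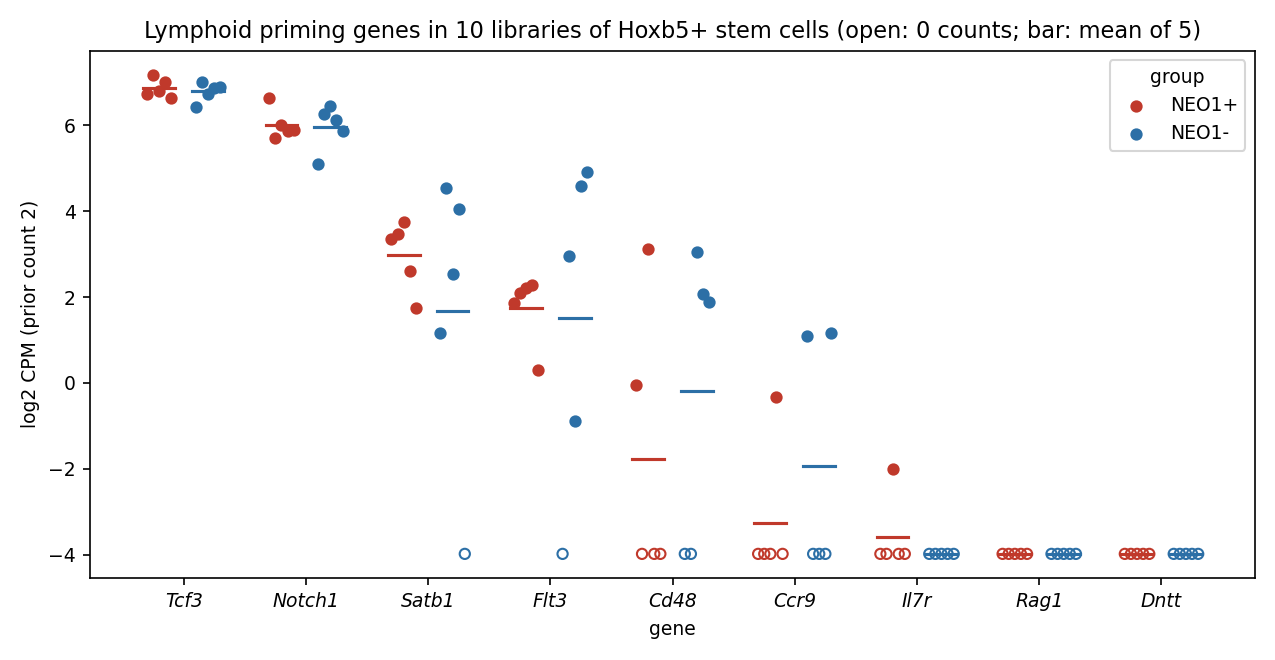
Log2 CPM (y axis, prior count 2) of the 9 genes (x axis) in each library, NEO1+ in red and NEO1- in blue; open circles are libraries with 0 counts, and bars are means of 5. Tcf3 and Notch1 have counts in all libraries, Satb1 and Flt3 spread more widely in NEO1- libraries, and Rag1 and Dntt lie at 0 counts in all libraries.

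Per kilobase of exon (union of GENCODE exons, which may differ from the annotation used by the authors), Tcf3 was the most abundant of the 9 with 28.5 ± 4.14 CPM per kb over the 10 libraries (SD, n = 10), and Notch1 followed with 4.64 ± 1.30. Their ranges, 21.4 to 35.9 and 2.397 to 6.97 CPM per kb, did not overlap. Cd48 (2.15 ± 2.92), Flt3 (1.30 ± 1.67) and Satb1 (0.483 ± 0.379) came next; each varied by about its own mean or more except Satb1, and the 3 did not differ beyond their spread. Ccr9 (0.0485 ± 0.0865) and Il7r (0.00399 ± 0.0126) were lower still. The order of Cd48, Flt3 and Satb1 depends on the exon lengths used, 1189, 6176 and 19027 bases. Without scaling by length their means over the 10 libraries ran the other way, at 2.55, 8.03 and 9.20 CPM. The exon union of Ccr9 holds distant 5′ exons and shares 18.8% of its bases with an antisense transcript, so its level per kilobase is uncertain.

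Tcf3 (chr10:80409514-80433647) encodes the E protein that opens the B and T lymphoid programs. It was at 106, 145, 112, 130 and 99.98 CPM in NEO1+ libraries 1 to 5 and at 86.3, 128, 107, 117 and 120 CPM in NEO1- libraries 1 to 5. The groups overlapped over most of their range. The log2 fold change, NEO1+ over NEO1-, was 0.09 (SE 0.15, 95% interval -0.23 to 0.41, edgeR adjusted p 0.998), with the narrowest interval of the 5 members tested.

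The partners of TCF3 gave no call either. Tcf12 and Tcf4 encode the other E proteins; Tcf12 measured 37.5 ± 15.5 and 43.7 ± 12.2 CPM, and Tcf4 74.1 ± 19.8 and 68.7 ± 17.4 CPM. The ID proteins bind E proteins and keep them off DNA. Id2 measured 36.4 ± 10.2 and 27.8 ± 13.9 CPM and Id1 2.60 ± 2.01 and 4.30 ± 3.16 CPM. Id3, which the filter dropped, had counts in 2 libraries only (48 in NEO1+ library 3 and 135 in NEO1- library 1). None of these genes passed the test, and Id1, Tcf12 and Tcf4 changed sign under at least 1 alternative.

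Notch1 (chr2:26457903-26516663) encodes the receptor whose signal imposes T cell fate. It was at 99.2, 51.7, 64.1, 58.3 and 59.4 CPM in NEO1+ libraries 1 to 5 and at 34.1, 77.4, 87.3, 69.9 and 58.4 CPM in NEO1- libraries 1 to 5. The highest value was in NEO1+ library 1 and the lowest in NEO1- library 1, and the other 8 libraries lay together between 51.7 and 87.3 CPM. The coefficient of variation was 0.282 in NEO1+ and 0.312 in NEO1- libraries, above the medians of 0.180 and 0.272 over the 2611 tested genes with a mean within 1.5-fold of that of Notch1. On the log2 scale the fitted fold change was 0.02 (SE 0.25, 95% interval -0.52 to 0.57, edgeR adjusted p 0.9997). It changed sign when NEO1+ library 1 (-0.16), NEO1- library 1 (-0.14) or NEO1- library 5 (-0.01) was left out. Strand use in counting is not known, which matters because 7.50% of its exon bases also lie in an antisense transcript.

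Rbpj, the DNA-binding partner of the cleaved receptor, measured 33.3 ± 6.77 and 29.7 ± 4.44 CPM, and the related receptor gene Notch2 60.4 ± 9.29 and 64.3 ± 25.01 CPM. Hes1, a direct Notch target, varied far more. It was at 0.192, 4.37, 0.629, 10.9 and 6.26 CPM in NEO1+ libraries 1 to 5 and at 0.0318, 7.20, 0.0338, 14.8 and 11.6 CPM in NEO1- libraries 1 to 5. It had 4 and 27 counts in NEO1+ libraries 1 and 3 and 1 count each in NEO1- libraries 1 and 3, fewer than in any other library, while Notch1 was low only in the NEO1- library 1 among these 4. Its log2 fold change was -0.59 (SE 1.40, edgeR adjusted p 0.998). Of the 30 other genes of the Notch pathway 23 were tested, 12 higher and 11 lower, with 0 past the threshold.

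Satb1 (chr17:51736187-51833290) encodes a nuclear protein that organizes chromatin and favours lymphoid over myeloid output of stem cells. It was at 10.2, 10.99, 13.5, 6.08 and 3.31 CPM in NEO1+ libraries 1 to 5 and at 2.16, 23.4, 5.78, 16.6 and 0 CPM in NEO1- libraries 1 to 5. The NEO1- libraries held both extremes, with the NEO1+ libraries between them. The log2 fold change was -0.12 (SE 1.06, 95% interval -2.41 to 2.17, edgeR adjusted p 0.9997). The mean of log2 CPM was higher in NEO1+ by 1.33, since a library at 0 pulls a log mean down, so the sign depends on the scale. It also turned when NEO1+ library 5 (0.09), NEO1- library 2 (0.52) or NEO1- library 4 (0.17) was left out.

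Flt3 (chr5:147330741-147400489) encodes the cytokine receptor FLK2, and the cells were sorted as negative for its surface protein. Its counts were 75, 164, 195, 157 and 40 in NEO1+ libraries 1 to 5 and 0, 164, 14, 789 and 907 in NEO1- libraries 1 to 5. That made 3.597, 4.19, 4.54, 4.77 and 1.16 CPM in NEO1+ and 0, 7.67, 0.474, 23.95 and 29.97 CPM in NEO1-, where the 95% Clopper-Pearson interval of the highest value was 28.0 to 31.98 CPM. Transcript was therefore measurable in 9 of the 10 libraries of cells sorted as FLK2-. NEO1- libraries 2, 4 and 5 stood above all NEO1+ libraries and NEO1- libraries 1 and 3 below all of them, so 0 of the 5 NEO1- libraries lay inside the NEO1+ range.

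The coefficient of variation of Flt3 was 0.400 in NEO1+ and 1.11 in NEO1- libraries. Over the 1574 tested genes with a mean within 1.5-fold of that of Flt3 the medians were 0.454 and 0.723, so NEO1- libraries varied more for such genes as well, and 32.1% of these genes had at least 1 library at 0. The log2 fold change of Flt3 was -1.76 (SE 1.23, 95% interval -4.42 to 0.89, edgeR adjusted p 0.898), and the call was not reached under any alternative tried. Its size rested on single libraries and on the fit. It was -1.13 without NEO1- library 5 and -3.76 when genes detected entered as a covariate, while limma-trend gave 0.42 from the log2 table. Mean log2 CPM of Flt3 was likewise higher in NEO1+, by 0.23. The 2 NEO1- libraries lowest in Flt3 were also those with the fewest genes detected and the lowest Hoxb5 (0.223 and 0 CPM); the part of this in the result was not tested.

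Flt3l, the ligand of FLT3, had counts in all libraries, with 12.7 ± 3.66 and 21.8 ± 11.9 CPM (log2 fold change -0.78, SE 0.39, edgeR adjusted p 0.800). Its highest value, 42.1 CPM, was in NEO1- library 1, where Flt3 itself had 0 counts. Across the 10 libraries log2 CPM of Flt3 and Hes1 had a Pearson correlation of 0.77 and a Spearman correlation of 0.89, a pair chosen after their values were seen; both share the libraries and their depth.

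**Figure D3:**
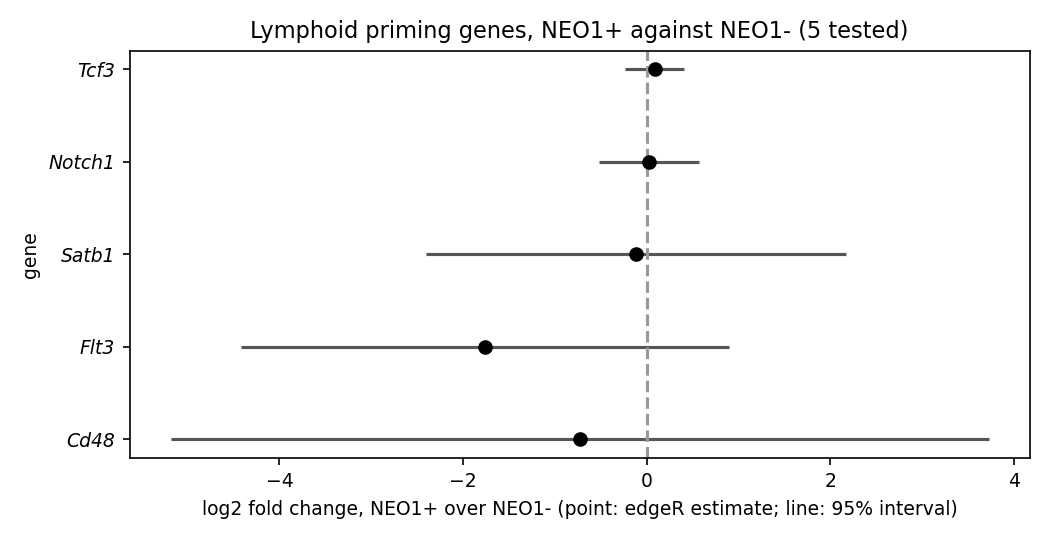
Log2 fold change of NEO1+ over NEO1- (x axis) for the 5 genes tested (y axis), with the edgeR estimate as a point and its 95% interval as a line. The intervals of Tcf3 (-0.23 to 0.41) and Notch1 (-0.52 to 0.57) are narrow, those of Satb1, Flt3 and Cd48 span several log2 units, and all 5 include 0.

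Cd48 (chr1:171682009-171705258) encodes the SLAM family protein that marks progenitors below the stem cell. The cells were sorted as CD48-, yet Cd48 had 19 and 373 counts in NEO1+ libraries 1 and 3 and 242, 136 and 110 counts in NEO1- libraries 3, 4 and 5, with 0 in the other 5. That made 0.911 and 8.68 CPM in the former and 8.19, 4.13 and 3.63 CPM in the latter. Of the 928 tested genes with a mean within 1.5-fold of that of Cd48, 77.0% had at least 1 library at 0, but only 3.56% had 5 or more. The log2 fold change was -0.73 (SE 2.07, 95% interval -5.19 to 3.72, edgeR adjusted p 0.998), and without NEO1+ library 3 it was -3.81 and without NEO1- library 3 it was -0.02.

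The libraries with Cd48 were those with the most transcript of granulocyte and monocyte genes. The summed level of 12 such markers ranged from 492 to 5098 CPM (NEO1+) and from 381 to 3063 CPM (NEO1-), with Ms4a2 at 0 in all. In the 5 libraries with Cd48 counts the sum was at least 1122 CPM, and in the 5 without it at most 877 CPM. The most abundant marker by mean was Lyz2, a lysozyme (451 ± 214 and 318 ± 63.5 CPM). Mpo, myeloperoxidase of early myeloid cells, was at 237 and 723 CPM in NEO1+ libraries 1 and 3 and at 1588, 551 and 0.330 CPM in NEO1- libraries 3, 4 and 5. Ngp, a late granule gene, was at 706 and 1232 CPM and at 4.50, 49.3 and 318 CPM in the same order. The markers thus differed in kind between libraries that shared Cd48, and the library labelled NEO1+ 4 had Mpo at 263 CPM with no Cd48 count. Over the 10 libraries log2 CPM of Cd48 and the log2 sum had a Pearson correlation of 0.86 and a Spearman correlation of 0.90. Erythroid transcript moved with the same libraries in part: the summed level of 11 erythroid markers was 201 and 332.7 CPM in NEO1+ libraries 1 and 3 and 204 CPM in NEO1- library 3, all with Cd48. It was 55.2 and 17.0 CPM in NEO1- libraries 4 and 5, which also had Cd48, and 9.73 to 37.6 CPM in the 5 libraries without it. These patterns were noticed in the data, and the part of myeloid or erythroid transcript in the Cd48 values was not tested. In bulk libraries fewer cells of a type and less RNA per cell cannot be told apart. In a fit without the 3 libraries of highest sum (NEO1+ libraries 1 and 3 and NEO1- library 3), chosen after seeing the data, 0 members passed, and Cd48, then at 0 in all 3 remaining NEO1+ libraries, fell below the filter. Cd244, the receptor that binds CD48, had 4 and 12 counts in NEO1- libraries 4 and 5 and 0 elsewhere.

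**Figure D4:**
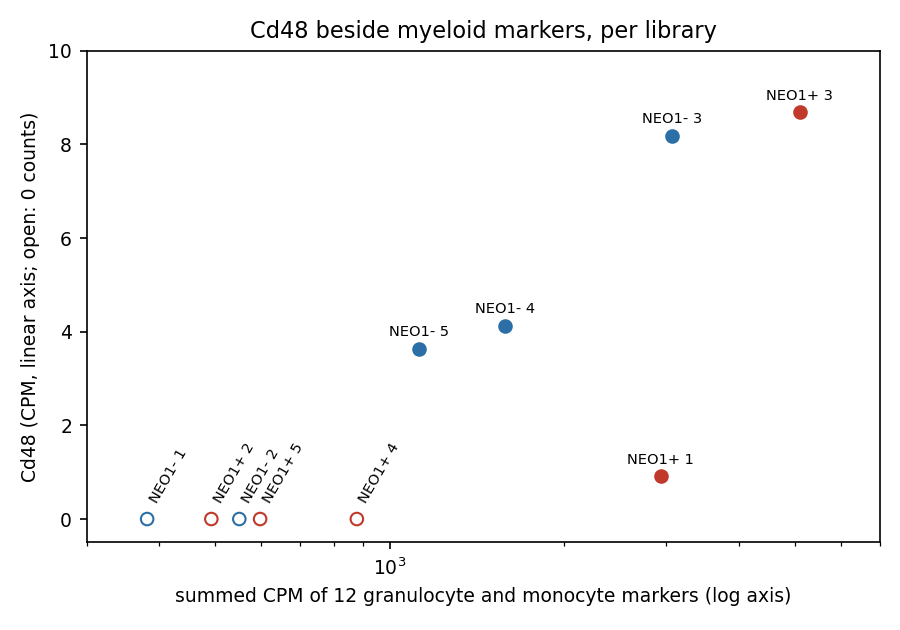
Cd48 in CPM (y axis, linear) against the summed CPM of 12 granulocyte and monocyte markers (x axis, log) in each of the 10 libraries, NEO1+ in red and NEO1- in blue, open where Cd48 had 0 counts. The 5 libraries with Cd48 lie at sums of 1122 CPM or more, and the 5 without it at 877 CPM or less.

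Ccr9 (chr9:123678439-123784330) encodes the receptor for the thymic chemokine CCL25. It had 24 counts in the library labelled NEO1+ 4 (0.729 CPM, 95% Clopper-Pearson interval 0.467 to 1.08), 65 in NEO1- library 1 (2.07 CPM, 1.60 to 2.63) and 66 in NEO1- library 5 (2.181 CPM, 1.69 to 2.77), and 0 in the other 7. The filter dropped it. Fitted without a filter it had an edgeR adjusted p of 0.832 over 15684 genes. Ccr9 is also a marker of dendritic cell precursors; of that marker list Siglech was at 0 in all libraries, and the sum of the 6 genes other than Flt3 and Ccr9 ranged from 68.0 to 89.9 CPM (NEO1+) and from 71.6 to 107 CPM (NEO1-), led by Bst2 (63.9 ± 3.20 and 67.7 ± 16.8 CPM). Ccl25, its ligand, measured 8.28 ± 4.396 and 2.56 ± 3.22 CPM (log2 fold change 1.69, SE 0.90, edgeR adjusted p 0.818). The groups overlapped through NEO1- library 1, at 8.30 CPM against 0.748 to 1.52 CPM in the other 4.

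Il7r (chr15:9505788-9530176) encodes the receptor chain on which early B and T cells depend. It had 8 counts in NEO1+ library 3 (0.186 CPM, 95% Clopper-Pearson interval 0.0804 to 0.367) and 0 in the other 9 libraries, so it was at or near the floor everywhere. The shared chain Il2rg was abundant in the same libraries, with 168 ± 33.7 and 191 ± 31.7 CPM (log2 fold change -0.19, SE 0.16, edgeR adjusted p 0.934). Il7, the cytokine itself, measured 6.15 ± 3.65 and 12.6 ± 7.48 CPM (log2 fold change -1.03, SE 0.61, edgeR adjusted p 0.852). Of the IL7R pair, then, only the chain shared with other cytokine receptors was measured at a sizeable level.

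Rag1 (chr2:101638282-101649501) and Dntt (chr19:41029275-41059525) act in antigen receptor recombination and had 0 counts in every library. At this depth each could have been present at up to 0.0698 to 0.144 CPM in a library. Rag2, the partner of RAG1, had 72 counts in NEO1+ library 3 and 5 in NEO1- library 4, which also were libraries with Cd48, and 0 in the other 8. The surrogate light chain gene Vpreb1 was detected in 6 libraries, at 0.544 ± 0.628 and 1.19 ± 1.28 CPM (edgeR adjusted p 0.998). A difference between the groups in Rag1 or Dntt was not detectable.

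Most markers of mature lymphoid cells were low or absent. Of 9 B cell markers measured 3 were at 0 in all libraries, Ms4a1 and Pax5 among them; the sum, 125 to 225 CPM (NEO1+) and 131 to 221 CPM (NEO1-), came mostly from Cd74 (121 ± 41.6 and 140 ± 46.8 CPM), an antigen presentation gene, and Cd79b. Among the other B cell markers Cd79a had 16, 147 and 47 counts in NEO1+ libraries 1, 3 and 4. Ebf1 had 1 and 72 counts in NEO1+ libraries 1 and 4, and both genes had 0 counts in all NEO1- libraries. The number of B cell markers with counts was 2 to 5 in NEO1+ libraries and 2 in each NEO1- library. This pattern was not particular to B cell markers. Dendritic cell markers with counts numbered 2 to 4 against 2, and natural killer and innate lymphoid markers 3 to 6 against 3. For T cell markers the groups overlapped, with 2 to 5 against 0 to 4. NEO1+ libraries also held more genes with counts over the whole table (13146 ± 391 against 12142 ± 680). These differences were not tested. Of 9 T cell markers Cd3e, Cd8a and Cd8b1 were at 0, and the sum spanned 0.307 to 5.89 CPM (NEO1+) and 0 to 12.6 CPM (NEO1-), led by Cd28 (1.82 ± 2.41 and 2.17 ± 4.16 CPM). Of 11 natural killer and innate lymphoid markers Klrk1, Gzma, Gzmb and Eomes were at 0, with a sum of 50.9 to 91.2 and 36.3 to 73.0 CPM. Erythroid markers summed to 23.9 to 332.7 CPM (NEO1+) and 9.73 to 204 CPM (NEO1-), led by Car1 (67.6 ± 87.6 and 39.3 ± 64.4 CPM), with 5 of 11, all globin genes, at 0; megakaryocyte markers summed to 895 to 1077 and 842 to 1118 CPM.

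The wider lymphoid program was read from 7 lists of 125 genes besides the members, of which 124 were in the table and 87 were tested. The fold change was above 0 for 43 and below 0 for 44 of the 87, and 0 passed the threshold. The median over these 87 was -0.005 on the log2 scale, beside 0.01 over all genes tested. Unadjusted p values were under 0.05 for 3 genes higher and 2 lower. Groups did not overlap in CPM for 2 genes with NEO1+ higher and 1 with NEO1+ lower; of all genes tested 1.35% and 1.13% did so. Of the 5 members tested 0 had groups without overlap.

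Among lymphoid transcription factors (18 tested, 9 higher and 9 lower) the smallest p belonged to Tox, a regulator of T cell development, with 53.3 ± 6.86 and 31.6 ± 10.8 CPM (log2 fold change 0.75, SE 0.27, edgeR adjusted p 0.593). The lowest NEO1+ library (41.7 CPM) lay just above the highest NEO1- library (40.8 CPM). Gata3, a T lineage factor, followed with 72.9 ± 7.81 and 54.5 ± 14.4 CPM (edgeR adjusted p 0.756). On the lower side stood Lyl1 (217 ± 31.7 and 238 ± 31.1 CPM) and Runx3 (2.74 ± 2.38 and 5.42 ± 4.12 CPM), with adjusted p of 0.957 and 0.988 in edgeR. Among E protein partners (6 tested, 3 higher and 3 lower) Id2 and Tal1 (47.8 ± 5.38 and 42.0 ± 7.96 CPM) were the first 2 on the higher side and Lyl1 and Tcf12 on the lower.

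In the Notch list Psen2 (37.9 ± 10.2 and 46.9 ± 13.5 CPM), a catalytic subunit of the protease that releases the Notch intracellular domain, stood first on the lower side with an edgeR adjusted p of 0.940. Its sign turned with genes detected as a covariate. Maml2, a coactivator, was at 24.2 ± 5.34 and 16.6 ± 7.37 CPM and Notch3 at 1.51 ± 0.501 and 2.25 ± 2.175 CPM. In cytokine and chemokine signalling (16 tested, 6 higher and 10 lower) Stat5b, which relays IL7R and other cytokine signals, measured 106 ± 12.9 and 79.7 ± 14.1 CPM (log2 fold change 0.42, SE 0.15, edgeR adjusted p 0.604) and the survival gene Bcl2 at 90.1 ± 10.1 and 67.0 ± 21.7 CPM (edgeR adjusted p 0.791). The first 2 on the lower side were Flt3l and Il7.

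In antigen receptor recombination (11 tested, 6 higher and 5 lower) Hmgb2, a DNA-bending cofactor of RAG that also rises in dividing cells, measured 191 ± 35.8 and 109 ± 34.8 CPM (log2 fold change 0.81, SE 0.21, edgeR adjusted p 0.368). It was 177, 162, 239, 218 and 158 CPM in NEO1+ libraries 1 to 5 and 67.9, 84.0, 119, 157.7 and 116 CPM in NEO1- libraries 1 to 5, so that the groups only just failed to meet, and DESeq2 called it (adjusted p 0.0313). Its relative Hmgb1 was at 488 ± 26.0 and 428 ± 52.9 CPM and the repair kinase gene Prkdc at 20.7 ± 3.65 and 27.2 ± 6.97 CPM (edgeR adjusted p 0.800 and 0.897). In the SLAM family 4 genes were tested. Slamf1, which encodes CD150, was at 87.4 ± 17.3 and 68.9 ± 14.7 CPM, Slamf8 at 6.21 ± 5.005 and 4.10 ± 3.32 CPM, Cd84 at 82.7 ± 4.63 and 87.8 ± 35.1 CPM and Ly9 at 4.202 ± 2.33 and 4.82 ± 6.65 CPM, with edgeR adjusted p of 0.823 or more.

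Among surface and signalling genes of lymphoid progenitors (10 tested, 5 higher and 5 lower) Ltb and Cd27 led the lower side. Ltb, lymphotoxin beta, was at 144, 170, 169, 146 and 155 CPM in NEO1+ libraries 1 to 5 and at 185, 260.2, 258, 186 and 177 CPM in NEO1- libraries 1 to 5, without overlap. Its log2 fold change was -0.44 (SE 0.14, edgeR adjusted p 0.491). Cd27, a costimulatory receptor, measured 58.8 ± 6.38 and 78.0 ± 15.6 CPM (log2 fold change -0.41, SE 0.17, edgeR adjusted p 0.691). On the higher side the kinase gene Lck measured 7.80 ± 3.40 and 3.37 ± 5.17 CPM (edgeR adjusted p 0.985). Within the gate, Kit was at 450 ± 45.1 and 497 ± 59.1 CPM, Ly6a at 177 ± 25.3 and 186 ± 27.2 CPM, Cd34 at 76.5 ± 28.1 and 86.0 ± 20.1 CPM and Hoxb5 at 3.37 ± 0.933 and 1.40 ± 1.19 CPM, and Neo1 at 47.5 ± 20.5 and 10.6 ± 5.65 CPM (edgeR adjusted p 0.248 for Neo1 and 0.899 or more for the others). The groups did not overlap in Hoxb5, but only just, with the lowest NEO1+ library at 2.446 CPM and the highest NEO1- library at 2.429 CPM. Among all genes tested 1.35% had groups without overlap and NEO1+ higher.

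**Figure D5:**
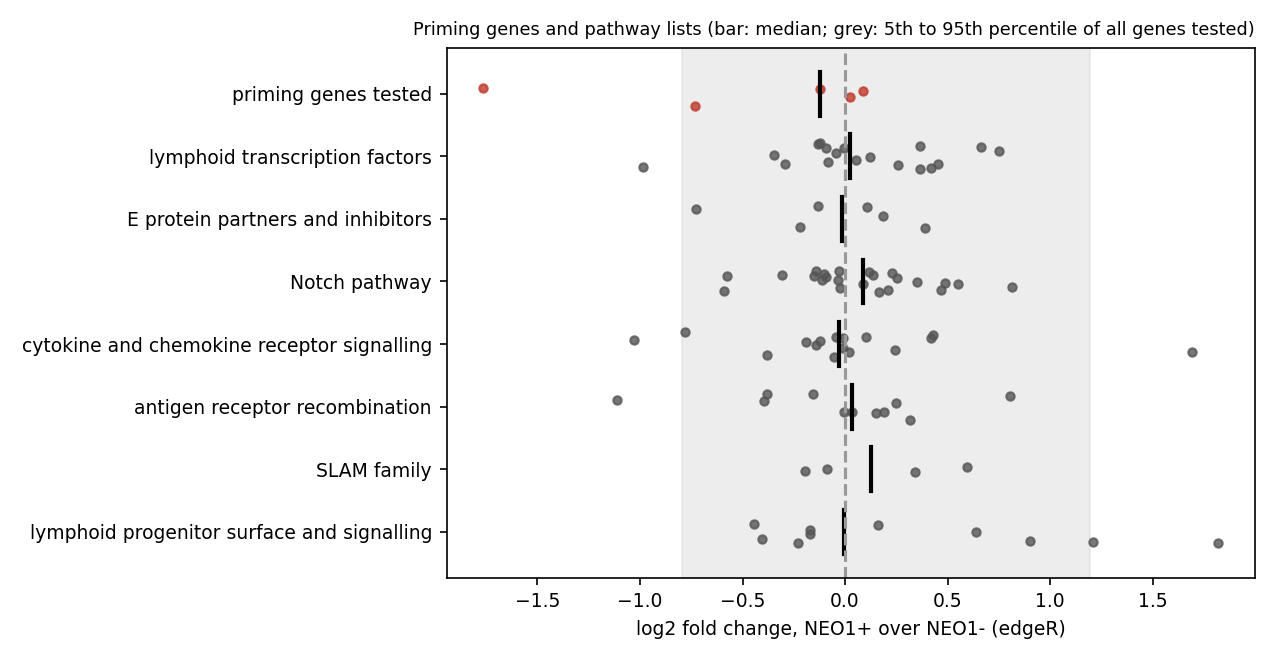
Log2 fold change of NEO1+ over NEO1- (x axis) of each tested gene in the priming set (red) and in 7 lists of the lymphoid program (grey points), with list medians as bars and the 5th to 95th percentile of all genes tested as a grey band. List medians lie between -0.12 (priming genes) and 0.13 (SLAM family), and 0 genes passed the edgeR threshold.

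By likeness of log2 CPM over the 10 libraries among 12202 other tested genes, the 3 genes closest to Flt3 were Actr6, Ccdc8 and Eps15l1 (Pearson correlation 0.94 each), those closest to Satb1 were 9930012K11Rik, Tmem185a and Cd96 (0.94, 0.94 and 0.93), those closest to Notch1 were Tm2d1, Gtf2ird2 and Ppp1r37 (0.94, 0.92 and 0.92) and those closest to Tcf3 were Phf5a, Spen and Arfgap1 (0.92, 0.92 and 0.92). For Cd48 the first 2 were Met and Ccnyl1 (0.87 and 0.85). Cd96 encodes an adhesion receptor of T and natural killer cells. Among the 5 tested members themselves correlations ran from -0.15 (Cd48 and Satb1) to 0.70 (Flt3 and Tcf3). These values describe 10 libraries that share depth and amplification.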

How the data were processed

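RNA-seq by Smart-seq2 (oligo-dT priming, 18 PCR cycles, 40 ng of cDNA into a Nextera library) was done on the 10 libraries, per the labels' protocols. The authors deposited raw counts per gene symbol and a table of log2 values, each equal to log2 of the count over 1 size factor per library, plus 1 (largest residual 5.15e-14). bcl2fastq 2.18, STAR 2.4, DESeq2 1.22.2 and the build mm10 are named, without roles, per the submitters' processing notes; the counting tool, annotation and strand setting are not given in the sources used here. Over the whole table, counts were filtered (filterByExpr), scaled by TMM and fitted robustly by quasi-likelihood (edgeR 4.0.16, R 4.3.3), with Benjamini-Hochberg adjustment at 0.05. The SE divides the absolute log2 fold change by the root of the F statistic, whose degrees of freedom set the 95% intervals. DESeq2 1.42.0 and limma-trend (limma 3.58.1, on the deposited log2 values) were alternatives, as were the replicate block, RLE scaling, no filter, Rn45s left out, genes detected as a covariate and each library left out; scripts were tested on simulated data. Log2 CPM has a prior count of 2 (0.5 as alternative), and detection means 1 count (3 counts, or the CPM of 3 counts in the shallowest library, as alternatives).

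The symbol Tcf3 is E2A here, since Tcf7l1 has its own row. Positions and exon lengths are from GENCODE M21, upstream windows from RefSeq, both on GRCm38. The start sites of these sources can differ. The windows of Notch1, Ccr9 and Il7r lie inside the GENCODE spans of these genes, and that of Tcf3 partly so. The members and lists were chosen with earlier results of these data known. Named genes are the members, their direct partners, the genes of the gate, in each list the 2 of smallest p per direction, the most abundant gene of each marker list and the 3 genes closest to each tested member with 10 counts in 5 libraries. The 2 groups carry the same numbers, and the labels do not say whether equal numbers pair libraries or whether both groups came from the same mice; p-values measure the spread between these libraries. Libraries of a group differed by a chi-square of at least 86.7 per degree of freedom, so none was a copy of another. A few genes that this rule names are not reported here.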

Additional observations from a re-analysis of the deposited data

Results flagged for a closer look

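Dixon's ratio, the gap from an extreme library to the next one over the range of the 5, passed its 95% critical value of 0.71 in 3 of 17 sets (each member by group where it had counts, total counts and genes detected); chance flags about 1 set in 20, or 0.85 here. In NEO1+ library 5 the log2 CPM of Flt3 was 0.29, while the other 4 of that group spanned 1.87 to 2.27. Il7r stood at -2.003 log2 CPM in NEO1+ library 3, where its 8 counts were, against -3.98 (0 counts) in the other 4. Ccr9 stood at -0.34 log2 CPM in the library labelled NEO1+ 4, where it had 24 counts, against -3.98 (0 counts) in the others. The last 2 are sets in which 1 library had counts and 4 had none. In such a set the ratio is 1 whatever the count, so these 2 flags were fixed in advance. They cannot be set against the number that chance flags.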

How the results depend on the processing

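In all alternatives 0 of the members passed the threshold, and their detection did not change with the detection threshold. Over all genes edgeR called 0, against 146 with DESeq2, 727 with DESeq2 and the replicate block, 2 without the filter, 1 with limma-trend and 0 to 1 without 1 library; unadjusted, edgeR had 806 genes under 0.05 and 874 with the block. Leaving out 1 library gave 0 members called in each fit. Same-numbered libraries correlated by 0.00 to 0.04 in their deviations from the group means. In this check 3 of 5 NEO1+ libraries correlated best with their own number. Such small correlations cannot decide whether equal numbers pair libraries, and the labels do not say. The main fit was therefore made without pairs, and the replicate block is given as an alternative. With the replicate block the sign turned for Satb1 (1.11 in edgeR, 1.11 in DESeq2), Notch3 (0.068, 0.064), Ly9 (1.31, 1.28) and Hes1 (0.56, 0.50), and for Cd84 in edgeR (0.0017). Flt3 was then at -0.15 and Cd48 at -2.59. DESeq2 with the block called Hmgb2 (adjusted p 6.81e-06), Ltb (0.00569), Lck (0.0115) and Neo1 (1.63e-09); DESeq2 without it called Hmgb2 and Neo1 of the named genes. With limma-trend on the deposited values the sign turned for Flt3 (0.42), Satb1 (1.51), Notch3 (0.59), Ly9 (1.35), Id1 (0.18) and Hes1 (0.61). With genes detected as a covariate it turned for Tcf3 (-0.033), Psen2 (0.27), Bcl2 (-0.012), Slamf8 (-0.26), Lck (-1.26) and Hoxb5 (-0.057). Without the 3 libraries of highest myeloid marker sum, an alternative added after seeing the data, it turned for Notch1 (-0.085), Tcf12 (0.014), Slamf8 (-0.16) and Cd34 (0.10). Leaving out 1 library moved the fold change between -0.16 and 0.15 for Notch1, -0.44 and 0.52 for Satb1, -2.09 and -1.13 for Flt3, -3.81 and -0.02 for Cd48, 0.00 and 0.14 for Tcf3, -0.52 and 1.07 for Ly9, -0.044 and 0.23 for Tcf4, -0.25 and 0.14 for Cd84, and -0.21 and 0.16 for Notch2. The cause of these turns was not tested. Rag1, Dntt, Il7r and Ccr9 were at or near the floor in most libraries, and the part of depth in this was not tested.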
